A study of Mus musculus and Homo sapiens with 18 samples.

Results

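Txnip, its alpha-arrestin relatives Arrdc1, Arrdc2, Arrdc3 and Arrdc4, and the glucose-sensing factors Mlxip and Mlxipl make up a set of 7 genes out of 55858 in the mouse tables of a bladder cancer study. They were taken by gene symbol, with the transcripts of each gene summed by gene identifier. The symbols were picked with earlier results of both mouse comparisons in view, so every level and difference of these 7 genes is a description, without a test.

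The study sequenced polyA-selected RNA from 18 libraries in 6 groups of 3, and the 12 mouse libraries are used here. Among the libraries labelled as tumours, GEMM bladder tumours (from a genetically engineered mouse model) that had relapsed under chemotherapy with cisplatin and gemcitabine were set against control tumours. Among the cell libraries, CUUC-G cells, a mouse line that the labels place under the same GEMM name, carried either a scrambled guide (sgScr) or a guide against Igfbp5 (sgIgfbp5). The labels call the guide-treated cells knockdowns while the series text calls them knockouts. The alleles and promoter of the model, the strain, sex and age of the mice, the clonality of the cells and any pooling of tumours are not given in the labels. Nothing says which replicates came from separate animals or cultures, so the spread between replicates may be technical.

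The alpha-arrestins are adaptor proteins that recruit NEDD4-family ubiquitin ligases to membrane proteins and so steer receptors and transporters into the cell. Txnip, the best known of them, also binds thioredoxin and promotes the internalisation of glucose transporters, which lowers glucose uptake. Mlxip (MondoA) and Mlxipl (ChREBP) are sensors of glucose phosphates that pair with Mlx, bind carbohydrate response elements and switch on Txnip and Arrdc4.

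The upstream windows of Txnip and Arrdc4 are printed because these are the best known targets of the sensors and because both had higher levels in sgIgfbp5 than in sgScr cells. Each window holds the 250 bases before the RefSeq start on GRCm38.p6, read 5′ to 3′ on the strand of the gene. The Txnip window lies at chr3:96557707-96557956 on the plus strand and the Arrdc4 window at chr7:68749239-68749488 on the minus strand. Capitals mark a match to the carbohydrate response element in Txnip and an E-box, CACGTG, in Arrdc4. The element was searched only as a pair of CACGNG half-sites in the same orientation, with 5 bases between them. Other forms of the element were not searched, so a window without a match may still hold one.
Txnip: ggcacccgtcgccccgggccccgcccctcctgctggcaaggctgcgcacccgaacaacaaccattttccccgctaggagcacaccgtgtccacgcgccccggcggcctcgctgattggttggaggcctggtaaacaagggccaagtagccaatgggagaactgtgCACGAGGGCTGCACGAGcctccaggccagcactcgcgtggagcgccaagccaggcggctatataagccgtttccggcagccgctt
Arrdc4: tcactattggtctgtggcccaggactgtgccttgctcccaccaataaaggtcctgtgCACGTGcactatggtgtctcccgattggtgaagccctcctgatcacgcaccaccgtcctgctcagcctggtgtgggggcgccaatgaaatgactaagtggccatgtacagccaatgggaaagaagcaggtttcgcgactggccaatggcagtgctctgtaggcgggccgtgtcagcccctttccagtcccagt
The Txnip match spans positions -85 to -69 from the start, and the window holds no CACGTG. Of 32851 mouse windows of this length, searched on both strands, 15 (0.0457%) held this paired pattern, while 1978 (6.02%) held CACGTG. The Arrdc4 window has CACGTG at -193 to -188 and no match to the paired pattern. It also holds 6 copies of CCAAT, a box found in 33.8% of windows, against 2 in the Txnip window at -137 to -133 and -102 to -98. A forkhead-type GTAAACA stands in the Txnip window at -121 to -115, and 3.17% of windows hold one. The windows of Arrdc1, Arrdc2, Arrdc3 and Mlxip hold neither CACGTG nor the paired pattern, and 1 of the 2 Mlxipl start windows holds CACGTG. The E-box reads alike on both strands and was counted once per place, and the paired pattern can contain it. A match is a string of letters, and binding was not measured.

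The libraries held 18964942 to 21757109 estimated counts in the tumours and 19210830 to 20729980 in CUUC-G. Igfbp5, the targeted gene, was low in all libraries, at 1.04 to 2.56 CPM (counts scaled to the library total) in sgScr and 0.393 to 0.606 CPM in sgIgfbp5 cells. Relapsed tumours and sgScr cells were nearly alike: 56 of 14012 genes (0.400%) differed at least 2-fold in mean level, against 2673 (19.1%) between control and relapsed tumours. Values from both comparisons therefore stand side by side here, and opposite directions in them are not independent observations. Whether the libraries labelled as relapsed tumours hold tumour tissue or cultured cells was not tested, and they are called relapsed tumours after their labels. The tables of tumours and cells were made separately, which touches every level set across them. The Y-linked gene Ddx3y was at 74.2 ± 4.02 CPM (SD, n = 3) in control tumours and at 0 counts in relapsed tumours and in both CUUC-G groups, so relapse and the sex of the tissue cannot be told apart. The urothelial markers Krt5 and Upk3a were at 0 in all 4 groups, and the 14 urothelial markers summed to 20.7 to 27.8 CPM in control tumours, 363 to 378 in relapsed tumours, 375 to 417 in sgScr and 107 to 130 in sgIgfbp5 cells. The 6 fibroblast markers summed to 16432 to 16904 CPM in control tumours, 8006 to 8172 in relapsed tumours, 8464 to 8946 in sgScr and 3541 to 3999 in sgIgfbp5 cells. The 8 immune markers summed to at most 3.77 CPM, with Cd3e at 0 in all 4 groups.

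Txnip (ENSMUSG00000038393.15, chromosome 3, 96557957 to 96561883, plus strand, GRCm38) was the most abundant of the 7 in every group. Levels are given as TPM, transcript abundances brought to a fixed total, which are scaled for transcript length and so allow genes to be compared. In control tumours Txnip stood at 125, 131 and 129 TPM, and in relapsed tumours at 63.9, 65.8 and 63.2 TPM. All relapsed libraries lay below all control libraries, and the means differed 2.0-fold (129 ± 3.02 against 64.3 ± 1.34 TPM, SD, n = 3). The edgeR log2 fold change on counts, relapsed minus control, was -0.92 ± 0.04 (SE).

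Txnip differed far more between the CUUC-G groups. It stood at 64.3, 60.9 and 60.3 TPM in sgScr cells and at 585, 641 and 627 TPM in sgIgfbp5 cells. The ranges lay far apart, and the mean was 9.99-fold higher in sgIgfbp5 cells (618 ± 28.7 against 61.8 ± 2.18 TPM, SD, n = 3). Counts gave a log2 fold change of 3.26 ± 0.07 (SE), sgIgfbp5 minus sgScr, from 6705 and 68440 counts summed over the 3 libraries of each group. Of 14553 genes tested in CUUC-G, 203 had a larger log2 fold change upwards, and 61 genes gained more than the 556 TPM by which Txnip differed. At relapse the Txnip value was less extreme, since 1983 of 14373 genes tested had a more negative log2 fold change.

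These levels placed Txnip among the highly expressed genes of all groups. In sgIgfbp5 cells only 192 of 15661 detected protein-coding genes had a higher mean TPM, against 2412 of 16049 in sgScr cells. In control tumours 1168 of 15533 did, and in relapsed tumours 2367 of 15994.

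**Figure D1:**
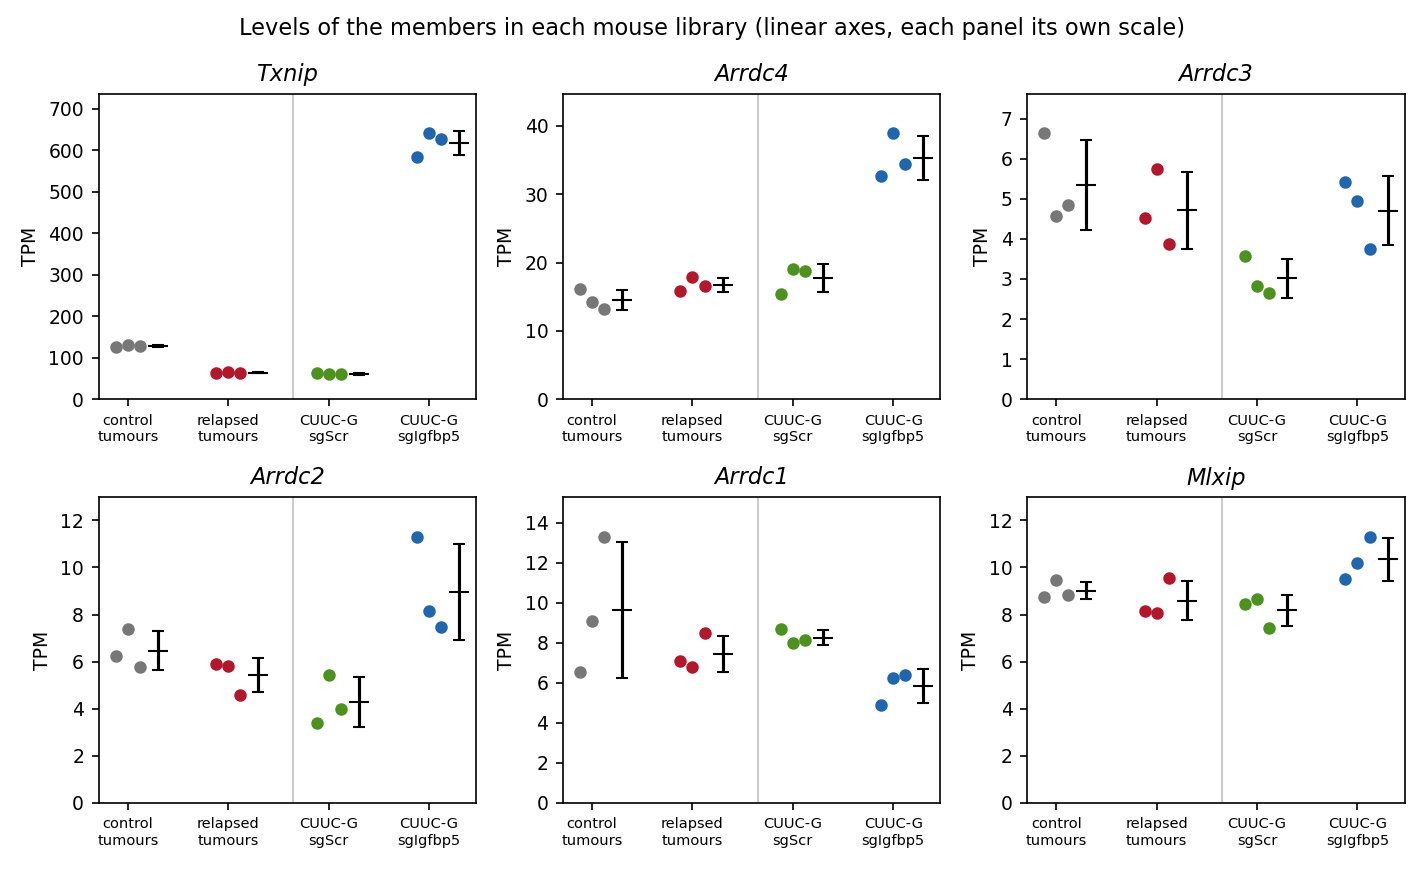
Levels of 6 of the 7 genes in each of the 12 mouse libraries, in TPM on linear axes with a scale of their own; points are libraries and bars the mean ± SD of 3. Txnip runs from about 60.3 to 65.8 TPM in relapsed tumours and sgScr cells to 585 to 641 TPM in sgIgfbp5 cells, while Arrdc1 alone has a lower mean in sgIgfbp5 than in sgScr cells.

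Reads from the Txnip locus were spread over a pair of coding transcripts in the tumours, the only table that gives transcripts. Txnip-202 stood at 78.5, 70.6 and 75.6 TPM in control and 34.6, 40.4 and 33.8 TPM in relapsed tumours. Txnip-201 stood at 45.6, 60.6 and 52.7 TPM in control and 27.4, 24.0 and 24.3 TPM in relapsed tumours. Both were lower in every relapsed library than in every control library. The share of Txnip-202 was 58.3% ± 4.44 in control and 56.3% ± 4.38 in relapsed tumours (SD, n = 3 libraries). Txnip-206, which has no defined coding sequence, made up 0.0964% ± 0.0837 of the gene's TPM in control and 2.23% ± 0.303 in relapsed tumours. These shares rest on 27.0 estimated counts over the 6 tumour libraries, against 11834 for Txnip-202. The antisense gene Gm15441 overlaps Txnip on the opposite strand. It was assigned 11 and 32 counts in control and relapsed tumours and 24 and 14 counts in sgScr and sgIgfbp5 cells.

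Sums of cell type markers differed between the same groups as Txnip, and their part in its values was not tested. The 5 endothelial markers, led by Kdr and with Cdh5 at 0 in control tumours and sgIgfbp5 cells, summed to 1.73 to 2.72 CPM in control and 151 to 163 CPM in relapsed tumours. In CUUC-G they summed to 149 to 157 CPM in sgScr and 8.78 to 9.10 CPM in sgIgfbp5 cells. Kdr alone of the 5 reached a mean of 1 CPM in each group. Its means were 1.44 CPM in control tumours, 156 in relapsed tumours, 153 in sgScr and 7.79 in sgIgfbp5 cells. The endothelial sums therefore follow 1 gene. The endothelial and urothelial sums were thus higher where Txnip was lower, at relapse, and lower where it was higher, in sgIgfbp5 cells. The median of the 14 urothelial markers went with their sum at relapse, at 0.243 CPM in control and 0.703 CPM in relapsed tumours. In CUUC-G this median went the other way, at 0.932 CPM in sgScr and 1.19 CPM in sgIgfbp5 cells. The 5 smooth muscle markers, led by Acta2, summed to 2120 to 2225 CPM in control and 1288 to 1311 CPM in relapsed tumours. In CUUC-G they summed to 1319 to 1510 CPM in sgScr and 163 to 192 CPM in sgIgfbp5 cells. The sums of smooth muscle and fibroblast markers were lower both in relapsed tumours than in control tumours and in sgIgfbp5 than in sgScr cells. The fibroblast sum was led by Col1a1, at 9942 CPM in control and 5483 CPM in relapsed tumours. The median fibroblast marker went the other way at relapse, at 69.1 CPM in control and 106 CPM in relapsed tumours. In CUUC-G this median was lower with the sum, at 101 CPM in sgScr and 40.5 CPM in sgIgfbp5 cells. In bulk RNA, fewer cells of a type and less marker RNA per cell cannot be told apart. Whether the libraries labelled as tumours hold mixed cell types was not tested.

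Arrdc4, the closest relative of Txnip and another brake on glucose uptake, ranked second in every group (ENSMUSG00000042659.16, chromosome 7, 68736995 to 68749241, minus strand). It stood at 16.1, 14.2 and 13.2 TPM in control tumours and 15.8, 17.9 and 16.5 TPM in relapsed tumours. These ranges overlapped, while in CPM they did not (20.9 to 22.7 in control against 24.1 to 24.8 in relapsed tumours). The log2 fold change was 0.17 ± 0.08 (SE), on the other side of 0 from Txnip. In sgScr cells it stood at 15.4, 19.1 and 18.7 TPM and in sgIgfbp5 cells at 32.6, 38.9 and 34.4 TPM. The groups did not overlap, and the mean was 1.99-fold higher in sgIgfbp5 cells (35.3 ± 3.28 against 17.7 ± 2.01 TPM, SD, n = 3). In CPM the ratio was 2.45 and the log2 fold change 1.29 ± 0.09 (SE).

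The split of Arrdc4 between its pair of transcripts, both coding, varied among the tumour libraries. The shorter Arrdc4-202 made up 47.1% ± 7.60 of the gene's TPM in control and 56.2% ± 5.30 in relapsed tumours (SD, n = 3). The longer Arrdc4-201 stood at 7.09 to 8.15 TPM in control and 6.78 to 7.61 TPM in relapsed tumours. Its levels thus overlapped between the groups.

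Arrdc2, a little-studied alpha-arrestin, lies on chromosome 8, 70835129 to 70839720, on the minus strand (ENSMUSG00000002910.12). It stood at 6.22, 7.39 and 5.78 TPM in control and 5.89, 5.83 and 4.60 TPM in relapsed tumours. The ranges overlapped, with a log2 fold change of -0.11 ± 0.17 (SE). In CUUC-G it stood at 3.41, 5.45 and 3.98 TPM in sgScr and 11.3, 8.14 and 7.48 TPM in sgIgfbp5 cells. All sgIgfbp5 libraries lay above all sgScr libraries, and the log2 fold change was 0.79 ± 0.18 (SE). Coding transcripts made up 40.5% to 67.3% of Arrdc2 TPM in control and 27.4% to 59.5% in relapsed tumours, and the rest came from transcripts with a retained intron.

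Arrdc3, an adaptor for beta-adrenergic receptors and integrin beta 4, lies on chromosome 13, 80883384 to 80896042, on the plus strand (ENSMUSG00000074794.11). In TPM it overlapped between control (6.63, 4.57 and 4.84) and relapsed tumours (4.51, 5.75 and 3.87). In CPM the groups stood apart, at 11.7 ± 0.296 in control and 9.98 ± 0.424 in relapsed tumours (SD, n = 3), and the log2 fold change was -0.22 ± 0.11 (SE). In CUUC-G the reverse held: TPM did not overlap between sgScr (3.57, 2.82 and 2.66) and sgIgfbp5 cells (5.41, 4.95 and 3.75), whereas CPM did. The log2 fold change of 0.40 ± 0.19 (SE), fitted on counts, rested in large part on sgIgfbp5 replicate 1, which held 14.2 CPM against 8.80 and 9.07 CPM in the others. Without it the log2 fold change was 0.13.

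Arrdc1, which recruits the ESCRT machinery to bud vesicles from the cell surface, was the member with a lower level in sgIgfbp5 cells (ENSMUSG00000026972.16, chromosome 2, 24925352 to 24935252, minus strand). It stood at 8.67, 7.99 and 8.14 TPM in sgScr and 4.88, 6.24 and 6.40 TPM in sgIgfbp5 cells. The groups did not overlap, and the log2 fold change was -0.54 ± 0.15 (SE). Among the tumour libraries it varied more within the control group (6.54, 9.10 and 13.3 TPM) than between the groups. Relapsed tumours stood at 7.07, 6.77 and 8.48 TPM. The log2 fold change there was -0.06 ± 0.18 (SE).

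Of the sensors, only Mlxip was measurable. Mlxip, the form known from muscle and proliferating cells (ENSMUSG00000038342.16, chromosome 5, 123394798 to 123457932, plus strand), stood at 8.76, 9.45 and 8.84 TPM in control and 8.13, 8.08 and 9.55 TPM in relapsed tumours. These ranges overlapped, with a log2 fold change of 0.07 ± 0.07 (SE). It stood at 8.46, 8.65 and 7.42 TPM in sgScr and 9.52, 10.2 and 11.3 TPM in sgIgfbp5 cells. Every sgIgfbp5 library was higher, though the difference was small beside that of Txnip, with a log2 fold change of 0.32 ± 0.09 (SE). One transcript, Mlxip-201, carried 97.2% ± 3.02 of the gene's TPM in control and 95.8% ± 1.96 in relapsed tumours.

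Mlxipl, the liver and fat cell form of the sensor (ENSMUSG00000005373.14, chromosome 5, 135089890 to 135138382, plus strand), was close to the limit of detection. It had 6 counts over the control and 5 over the relapsed tumours, while sgScr libraries held 7 counts in all and sgIgfbp5 libraries 1. It did not pass the filter on low counts, and differences in Mlxipl were not detectable at this depth.

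Of the 6 members that passed the filter, 1 was called by edgeR at an adjusted p under 0.05 at relapse, where 73.5% of all genes tested were called, and that was Txnip, called lower (36.9% of all genes were called lower). In CUUC-G 5 of 6 were called, where 70.8% of all genes were called. Txnip, Arrdc4, Arrdc2 and Mlxip were called higher (36.5% of all genes) and Arrdc1 lower (34.3% of all genes). The call of Mlxip was lost without sgIgfbp5 replicate 3, where its log2 fold change was 0.25. Arrdc3, not called in CUUC-G, was called there in 8 of 14 alternative analyses. These included all fits to log2 TPM, but not the fit without sgIgfbp5 replicate 1. Groups did not overlap in CPM for 3 of 6 members at relapse, against 75.3% of all genes, and for 5 of 6 in CUUC-G, against 73.9%. These calls come from the contrasts that chose the members and are listed as values.

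**Figure D2:**
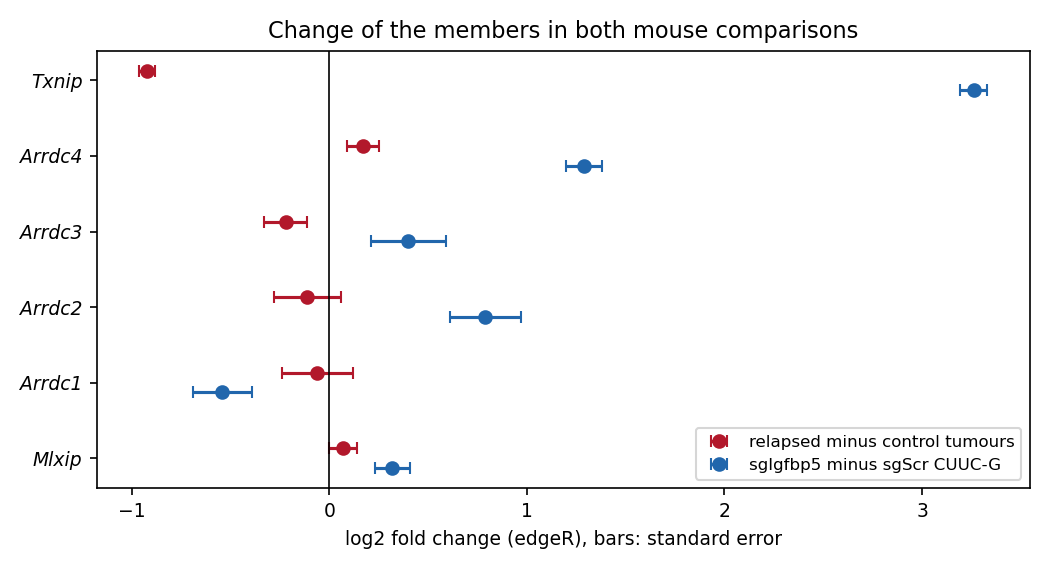
Log2 fold changes from edgeR for the 6 members that passed the filter, with bars of 1 standard error; red is relapsed minus control tumours and blue sgIgfbp5 minus sgScr cells. Txnip lies at -0.92 and 3.26, Arrdc4 at 0.17 and 1.29, and the other members lie between -0.54 and 0.79.

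The order of levels below Txnip was not the same in all groups. Arrdc4 came second throughout, but its range overlapped that of Arrdc1 in control tumours. Arrdc1 and Mlxip followed, with overlapping ranges in control tumours, relapsed tumours and sgScr cells. In sgIgfbp5 cells Arrdc1 (5.84 ± 0.837 TPM, SD, n = 3) came after Mlxip (10.3 ± 0.901) and Arrdc2 (8.97 ± 2.04), whose ranges overlapped. Arrdc3 was the lowest of the measurable members in every group, with a range that overlapped that of its neighbour in the order.

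Among 10182 genes compared over the 12 mouse libraries, those whose profile lay nearest to that of Txnip were Cbx7, Card10, Fbxl7, Plekhg1 and Epha7. Likeness was the mean absolute difference of log2 CPM, each centred on the mean of its table, and ranged from 0.15 for Cbx7, a Polycomb protein, to 0.20 for Epha7, an ephrin receptor. The log2 fold changes of Cbx7 were -0.97 at relapse and 3.72 in CUUC-G. The profiles nearest to the mirror image of Txnip were those of Aldh1a1, Parpbp, Emilin2, Igfbp7 and Dap, at distances of 0.07 to 0.10. Aldh1a1, a retinaldehyde dehydrogenase, had log2 fold changes of 1.06 and -3.33, and Igfbp7, a secreted binding protein, had 0.91 and -2.97. By this distance, which also counts a smaller size of change, Arrdc4 ranked 1688 at 0.76, Arrdc2 2191, Arrdc3 3168, Mlxip 4272 and Arrdc1 6643. Pearson's r with Txnip over the 12 libraries, given as a description, was 0.91 for Arrdc4 and 0.86 for Arrdc2. All of these profiles share the same 4 groups, in which relapsed tumours and sgScr cells were nearly alike. With Pearson's r in place of the distance, 1 of the 5 nearest genes, Cbx7, remained.

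**Figure D3:**
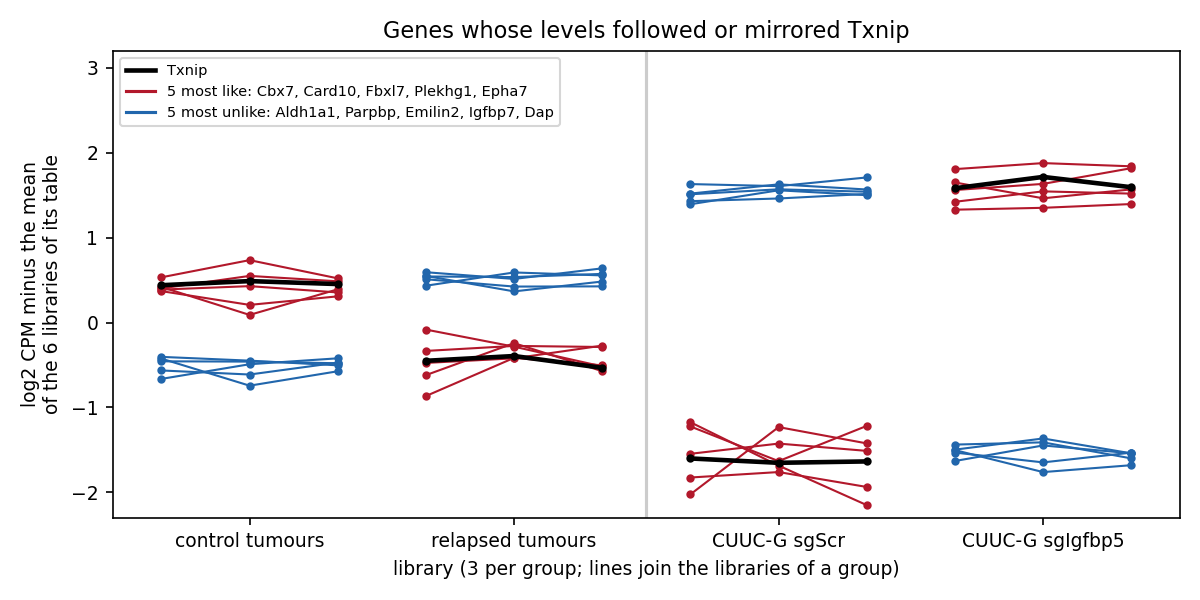
Log2 CPM of Txnip (black), the 5 genes nearest to it (red) and the 5 nearest to its mirror image (blue) in the 12 mouse libraries, each centred on the 6 libraries of its table. Txnip and the red genes are above 0 in control tumours and sgIgfbp5 cells and below 0 in relapsed tumours and sgScr cells, and the blue genes lie on the other side.

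Around the members, 9 lists of 110 genes of the same pathways were examined, of which 98 were tested in each comparison. At relapse 41 rose, 41 fell and 16 did not pass, where 36.6% of all genes tested rose and 36.9% fell. In CUUC-G 37 rose, 44 fell and 17 did not pass, where 36.5% of all genes rose and 34.3% fell. Each list's counts below stand beside these shares. The median log2 fold change over all genes tested was 0.00 at relapse and 0.06 in CUUC-G. All calls in these lists are at an edgeR adjusted p under 0.05, and a value with an SE is an edgeR log2 fold change.

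In the MLX and MYC/MAX network, which holds the partners and competitors of the sensors, 5 of 11 genes rose and 5 fell at relapse, with a median of 0.04. In CUUC-G 7 rose and 4 fell, with a median of 0.81. Mlx, the obligate partner of Mlxip, rose at relapse (0.38 ± 0.07, SE) and fell in sgIgfbp5 cells (-0.29 ± 0.09), a call lost in 1 of 14 alternative analyses. Myc, whose product competes for the same E-boxes, fell from 345 ± 12.2 to 185 ± 7.16 CPM (SD, n = 3) at relapse and rose from 183 ± 5.19 to 441 ± 13.7 CPM in sgIgfbp5 cells. Mnt, a repressor that can pair with Mlx, rose in sgIgfbp5 cells (1.10 ± 0.08) and had a value of 0.04 ± 0.07 at relapse. On log2 TPM with the filter on low values, 3 genes of the list rose at relapse in place of 5, and over the alternatives as few as 2 of the 4 falls in CUUC-G were called.

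Txnip restrains glucose entry, and the list of glucose entry and phosphorylation also holds enzymes that act on glucose and its phosphates. At relapse 7 of 12 genes rose and 2 fell, with a median of 0.52, and in CUUC-G 1 of 11 rose and 9 fell, with a median of -1.13. Slc2a1, the transporter GLUT1, rose from 99.7 ± 4.20 to 240 ± 11.9 CPM (SD, n = 3) at relapse and fell from 266 ± 17.4 to 50.5 ± 4.56 CPM in sgIgfbp5 cells. Hk1, a hexokinase, rose at relapse (0.89 ± 0.04, SE) and fell in sgIgfbp5 cells (-1.13 ± 0.07). Hk2, the inducible hexokinase, rose at relapse (0.63 ± 0.04) and fell in sgIgfbp5 cells (-0.38 ± 0.08), where 12 of 14 alternatives kept the call. Between 5 and 11 genes of this list fell in CUUC-G over the alternatives. Txnip and Slc2a1 thus had values on opposite sides in both comparisons, which share the near identity of relapsed tumours and sgScr cells.

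Other known targets of the sensors form a list of their own. Of 12 carbohydrate response targets tested at relapse, 9 rose and 2 fell, with a median of 0.83, while Txnip was lower. In CUUC-G 5 of 13 rose and 8 fell, with a median of -0.63, while Txnip was higher. Fasn, the fatty acid synthase, rose from 217 ± 7.83 to 737 ± 22.3 CPM (SD, n = 3) at relapse and fell from 761 ± 93.1 to 310 ± 20.5 CPM in sgIgfbp5 cells. Bhlhe40, a circadian repressor, rose at relapse (1.47 ± 0.05, SE) and fell in sgIgfbp5 cells (-1.86 ± 0.07). Klf10, a glucose-induced transcription factor, rose in both, by 0.30 ± 0.06 and 0.53 ± 0.08 on the log2 scale.

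In the thioredoxin and peroxiredoxin system, whose thioredoxins Txnip binds, 8 of 14 genes rose and 4 fell at relapse (median 0.23), and 1 rose and 7 fell in CUUC-G (median -0.50). Txn1, the cytosolic thioredoxin, rose at relapse (0.22 ± 0.04, SE), a call kept in 11 of 14 alternatives. It fell from 315 ± 41.4 to 204 ± 13.4 CPM (SD, n = 3) in sgIgfbp5 cells. Txn2, the mitochondrial form, fell from 263 ± 7.84 to 138 ± 4.49 CPM at relapse and rose from 172 ± 10.2 to 375 ± 30.0 CPM in sgIgfbp5 cells. Txnrd1, the cytosolic reductase, fell at relapse (-0.45 ± 0.03, SE) and did not pass in CUUC-G (0.13 ± 0.06). On log2 TPM 5 genes of this list rose at relapse in place of 8, and up to 3 rose in CUUC-G over the alternatives.

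Among the other arrestin-fold proteins, 2 of 7 rose and 1 fell at relapse (median -0.04), and in CUUC-G 1 rose and 3 fell (median 0.17). The beta-arrestins Arrb1 and Arrb2 did not pass in either comparison: Arrb1 had values of -0.04 ± 0.14 and 0.29 ± 0.13 (SE) and Arrb2 of 0.01 ± 0.10 and 0.17 ± 0.10. Vps26a, a retromer subunit with the same fold, rose at relapse (0.47 ± 0.05) and fell in sgIgfbp5 cells (-0.24 ± 0.08). The call in CUUC-G was kept in 9 of 14 alternatives. The counts of this list moved with the setting, between 1 and 3 in either direction in CUUC-G.

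Of the NEDD4-family ligases and ESCRT partners, which alpha-arrestins recruit, 2 of 13 rose and 10 fell at relapse (median -0.52). In CUUC-G 7 rose and 4 fell (median 0.21). Itch, the ligase that ubiquitinates Txnip, fell from 99.8 ± 3.01 to 57.0 ± 2.36 CPM (SD, n = 3) at relapse and rose from 49.4 ± 2.82 to 83.8 ± 14 CPM in sgIgfbp5 cells. Nedd4l fell at relapse (-0.66 ± 0.04, SE) and rose in sgIgfbp5 cells (0.57 ± 0.08). Nedd4, the founding ligase, was the most abundant of those named, at 1489 ± 54.9 CPM (SD, n = 3) in control tumours. It rose at relapse by 0.10 ± 0.03 (SE), a call kept in 11 of 14 alternatives while 3 gave the opposite sign, and fell in sgIgfbp5 cells (-0.53 ± 0.09). Wwp1 fell at relapse (-0.98 ± 0.06), and its call in CUUC-G (-0.34 ± 0.14) was kept in 7 of 14 alternatives. The 2 rises at relapse were not called on log2 TPM, and over the alternatives 1 to 4 genes fell in CUUC-G.

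Among 18 genes of the AMPK, AKT, FOXO and mTOR list, which includes kinases that mark Txnip for degradation, 5 rose and 11 fell at relapse (median -0.24). In CUUC-G 10 rose and 5 fell (median 0.23). Prkaa1, a catalytic subunit of AMPK, did not pass at relapse (-0.05 ± 0.04, SE). It fell in sgIgfbp5 cells (-0.33 ± 0.10), a call kept in 9 of 14 alternatives. Prkaa2, another such subunit, was low, at 0.885 CPM in control tumours. It rose at relapse (1.17 ± 0.37), from 54 counts in control to 121 in relapsed tumours, and did not pass in CUUC-G (0.12 ± 0.31). The rise was called in 10 of the 12 alternatives that tested this gene, with values down to 0.22. Akt1 rose from 239 ± 10.9 to 514 ± 3.10 CPM (SD, n = 3) at relapse and fell from 626 ± 29.0 to 381 ± 26.4 CPM in sgIgfbp5 cells. Foxo1, a forkhead factor, fell from 23.1 ± 1.27 to 13.4 ± 2.02 CPM at relapse and rose from 12.1 ± 0.448 to 34.1 ± 0.750 CPM in sgIgfbp5 cells. Over the alternatives 2 to 5 genes of the list rose at relapse, with 3 in place of 5 without relapsed replicate 1, and 3 to 5 fell in CUUC-G.

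Txnip is also known as a glucocorticoid-induced gene. Of 9 genes tested in the list of glucocorticoid response, which counts the receptor Nr3c1 itself, 3 rose and 5 fell at relapse (median -0.50), and 4 rose and 3 fell in CUUC-G (median 0.12). Nr3c1 is 1 of the falls at relapse (-0.60 ± 0.05, SE) and 1 of the rises in CUUC-G (0.29 ± 0.10), where 8 of 14 alternatives kept its call. Tsc22d3, the glucocorticoid-induced leucine zipper, fell from 68.7 ± 4.81 to 28.5 ± 0.849 CPM (SD, n = 3) at relapse and rose from 29.3 ± 2.54 to 75.1 ± 6.42 CPM in sgIgfbp5 cells. Fkbp5, a chaperone of the receptor, went the other way, with 1.00 ± 0.05 (SE) at relapse and -1.19 ± 0.08 in CUUC-G. Of the beta-adrenergic receptors, cargo of Arrdc3, Adrb1 fell from 23.0 ± 2.09 to 1.44 ± 0.902 CPM at relapse and rose from 0.662 ± 0.139 to 15.9 ± 1.03 CPM in sgIgfbp5 cells.

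**Figure D4:**
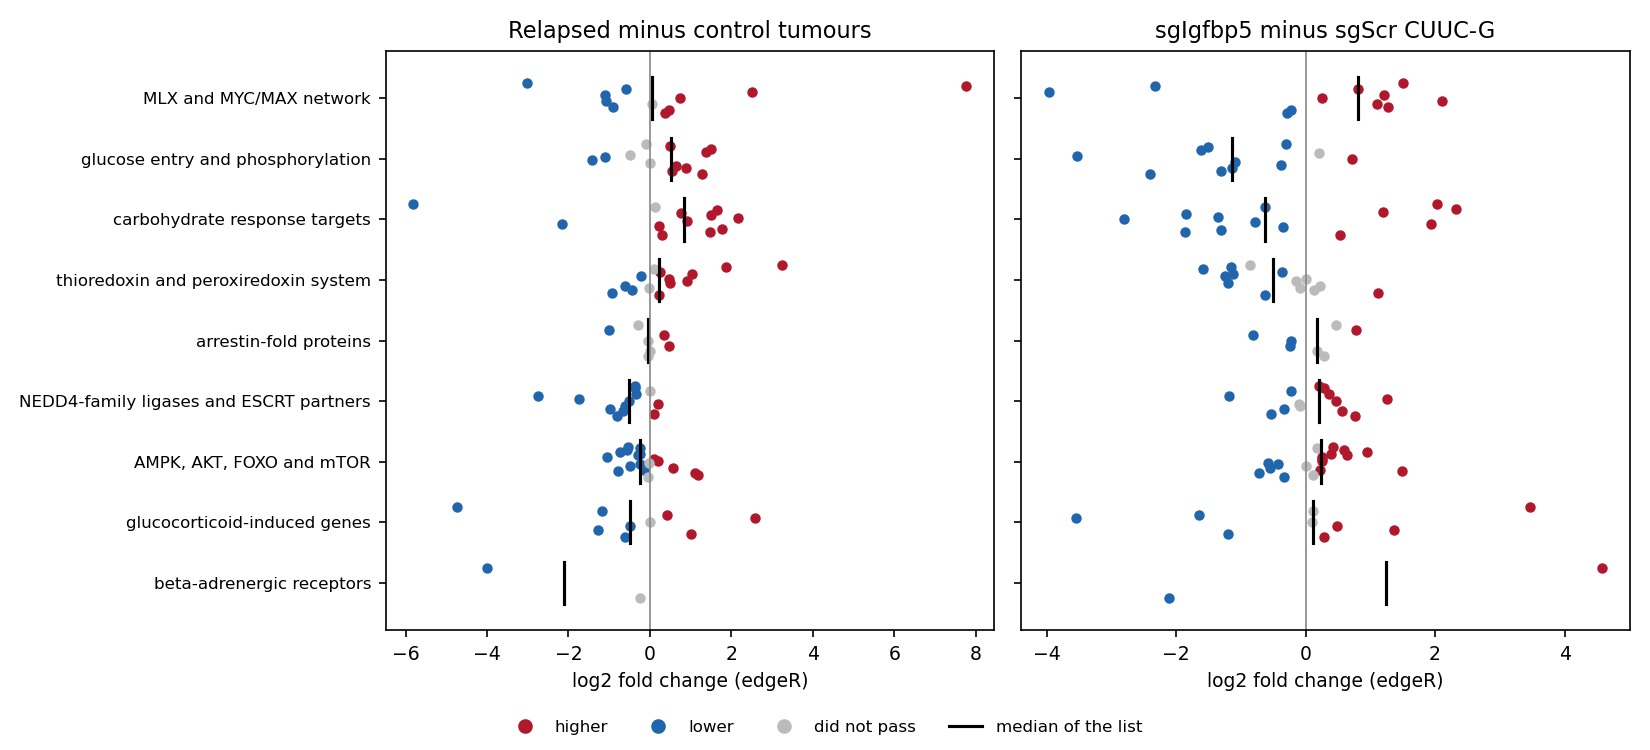
Log2 fold changes from edgeR of each tested gene in the 9 pathway lists, relapsed minus control tumours on the left and sgIgfbp5 minus sgScr cells on the right; red points rose, blue points fell, grey points did not pass and black lines are list medians. Carbohydrate response targets have medians of 0.83 and -0.63 and NEDD4-family ligases of -0.52 and 0.21.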

How the data were processed

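PolyA-selected RNA was sequenced with a stranded kit, per the labels' protocols, and Salmon, with no version, is the tool in the submitters' processing notes, which name GRCm38 (mm10) and GRCh38 (hg38) without a role. Whether strand was used in counting is not given in the sources used here. For the mouse tumours the authors deposited estimated counts for 147828 transcripts, summed here to 55858 genes and rounded. For CUUC-G they deposited whole numbers for the same genes, which are rounded estimates, since in 153 values the count is 0 and the TPM above 0. TPM values were deposited by the authors in separate tables and summed by gene. The MGHU3 human libraries were not analysed here.

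Each library's group and replicate number were read from its labels. CUUC-G columns marked mI were taken as sgIgfbp5 because the labels mark targeted human libraries hI. Differences were fitted with edgeR 4.0.16 (R 4.3.3) by the quasi-likelihood test with TMM scaling, filterByExpr, robust dispersion and Benjamini-Hochberg adjustment over all genes tested, two-sided, at 0.05, on the 6 libraries of each comparison. CPM are on TMM-scaled totals. The alternatives replaced TMM by RLE factors or by plain library size, edgeR by DESeq2 1.42.0, and the low-count filter by a minimum of 1 count in all. They also fitted limma 3.58.1 to log2(TPM + 1) and log2(TPM + 0.1) where the mean TPM reached 1, dropped that limit, blocked on replicate number, or left out 1 library. Fits were tested on simulated data: the relapse fit found 97 of 100 shifts of 1.5-fold and 100 of 100 of 2-fold, and the CUUC-G fit 78 and 99. The simulation gave all genes of a comparison the same dispersion and shifted only a small part of them, none with low counts. In the real data most genes were called, so these shares do not measure recovery there or for low-count genes.

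Positions came from GENCODE M21 on GRCm38, matched without version, and upstream windows from RefSeq GRCm38.p6, in which all 7 members were found. The members and lists were chosen with earlier results of these data known. The named genes are all members, the first 4 genes of each list tested in both comparisons, of which some are not reported, and the 5 nearest and 5 mirrored profiles among protein-coding genes whose mean log2 CPM (prior count 2) reached 2. Igfbp5, Ddx3y, Gm15441 and the markers are named as checks.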

Additional observations from a re-analysis of the deposited data

How the results depend on the processing

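Over 14 refits of the same libraries, given as a description, the log2 fold change of Txnip lay between -1.0 and -0.88 at relapse and between 3.16 and 3.37 in CUUC-G. In CUUC-G that of Arrdc4 lay between 0.96 and 1.40, Arrdc2 between 0.64 and 1.05, Arrdc1 between -0.63 and -0.43 and Arrdc3 between 0.13 and 0.62. At relapse Arrdc1 (-0.32 to 0.11) and Mlxip (-0.07 to 0.12) crossed 0.

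Genes called higher at relapse numbered 3438 on log2(TPM + 1) and 3390 on log2(TPM + 0.1) in place of 5260, and pathway list genes called higher numbered 27 and 27 in place of 41. In CUUC-G, pathway list genes called lower numbered 29 on log2(TPM + 0.1) in place of 44. The cause was not tested. Leaving out each library in turn gave 5032 to 5233 genes higher and 5090 to 5263 lower at relapse, and 4726 to 5177 higher and 4600 to 5358 lower in CUUC-G. With library size as the only scaling, the median of all genes in CUUC-G was 0.17 in place of 0.06, and 6043 genes were higher and 4389 lower.

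Same-numbered libraries did not deviate together (correlations of 0.038, 0.048 and 0.011 at relapse, and 0.085, 0.166 and -0.318 in CUUC-G). In CUUC-G some differently numbered libraries did, the most sgScr replicate 1 with sgIgfbp5 replicate 3 (0.376). With the replicate number as a block, 5208 genes were higher and 5264 lower at relapse and 5155 higher and 4882 lower in CUUC-G, and the one member whose call changed was Arrdc3 in CUUC-G.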
